A study of Mus musculus with 8 samples.

Results

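The 37 genes described here are 35 that make or assemble ribosomes in the nucleolus, the growth regulator Myc and its known target Cad. They were listed by name for their known roles, with earlier results of these data known, so the list is not independent of the data. Matched by gene symbol to the arrays, all 37 were measured among 18193 genes in all. Each gene was read from its brightest probe set with exactly 1 gene symbol. The livers came from 8 male mice of the C57BL/6 strain, 92 to 101 days old. Of these mice, 4 were MTAP+/- (heterozygous) and 4 were MTAP+/+ (wild-type), with 1 Affymetrix array per mouse. Mtap encodes methylthioadenosine phosphorylase, which recycles the methylthioadenosine left over from polyamine synthesis. The labels do not say which part of Mtap the altered allele lacks, or whether mice of a genotype shared a litter or collection time. All levels are the authors' log2 signals from RMA, which summarises the probes of a probe set after normalising the arrays together, and every change is heterozygous minus wild-type on that log2 scale.

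Ribosome synthesis starts with transcription of ribosomal RNA by RNA polymerase I in the nucleolus. Small nucleolar RNAs (snoRNAs) in 2 kinds of particle, box C/D and box H/ACA, then guide methylation and pseudouridylation of that RNA, while large sets of assembly factors and RNA helicases shape the small and large subunits. The transcription factor MYC is a known activator of many of these genes, and in mouse liver several of them are known to follow the daily cycle of feeding.

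The labels were checked on Mtap itself, at 6.72, 6.92, 6.99 and 6.95 in heterozygous livers against 7.82, 7.57, 7.69 and 7.69 in wild-type livers (replicates 1 to 4). The groups did not overlap, and the heterozygous level was 57.6% of the wild-type level (limma adjusted p = 0.0281). This probe set is the brightest of 4 for Mtap. The change was -0.80 there, -1.23 with the probe sets averaged and -1.50 without those of a kind that can match several transcripts. Leaving out 1 liver took the adjusted p past 0.05 in 6 of 8 fits, to 0.121 at most, with changes of -0.84 to -0.74. Hepatocyte markers averaged 12.94 to 13.14 in heterozygous and 12.85 to 13.10 in wild-type livers, far above the median gene level of 5.12, and biliary markers averaged 3.91 to 4.03 in heterozygous and 4.02 to 4.20 in wild-type livers, with 4 of 5 below that median. The livers also differed in ways that crossed genotype: on the first principal component, with 28.3% of the variance, heterozygous replicate 2 and wild-type replicates 1 and 2 scored 25.59 to 35.57, wild-type replicate 3 scored 3.58, and the other 4 livers scored -24.91 to -23.43.

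None of the 37 genes passed the test, yet most were lower in heterozygous liver. The level was lower for 32 of the 37 (86.5%), where 54.7% of all genes were lower. The share was 54.0% of the genes at least as bright as the dimmest of the 37. The median change was -0.17 against -0.02 over all genes. Many of the 37 genes shared a pattern across livers, so they are not separate readings of genotype. Their mean was 6.84 ± 0.18 in heterozygous and 7.05 ± 0.23 in wild-type livers (SD, n = 4 each). The ranges of that mean overlapped. By limma 0 of 37 had an adjusted p under 0.05, the threshold for a call, where 9 of 18193 genes (0.0495%) were called, 0.022% lower and 0.0275% higher, and the smallest adjusted p of the 37 was 0.310. At an unadjusted p under 0.05, 7 were lower (all genes 4.74%) and 1 was higher (all genes 4.4%). Of the 11465 genes at least as bright as the dimmest of the 37, 717 (6.25%) were lower and 709 higher at that p. With genes below the median level left out, 5 of 34 were lower at that p, against 5.97% of all genes kept. The genotypes did not overlap for 3 lower genes (all genes 2.7%) and 0 higher genes (all genes 1.95%). Of those 11465 genes, 365 were lower and 284 higher without overlap. Because the livers are bulk tissue, fewer cells of a type and less RNA per cell cannot be told apart.

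**Figure D1:**
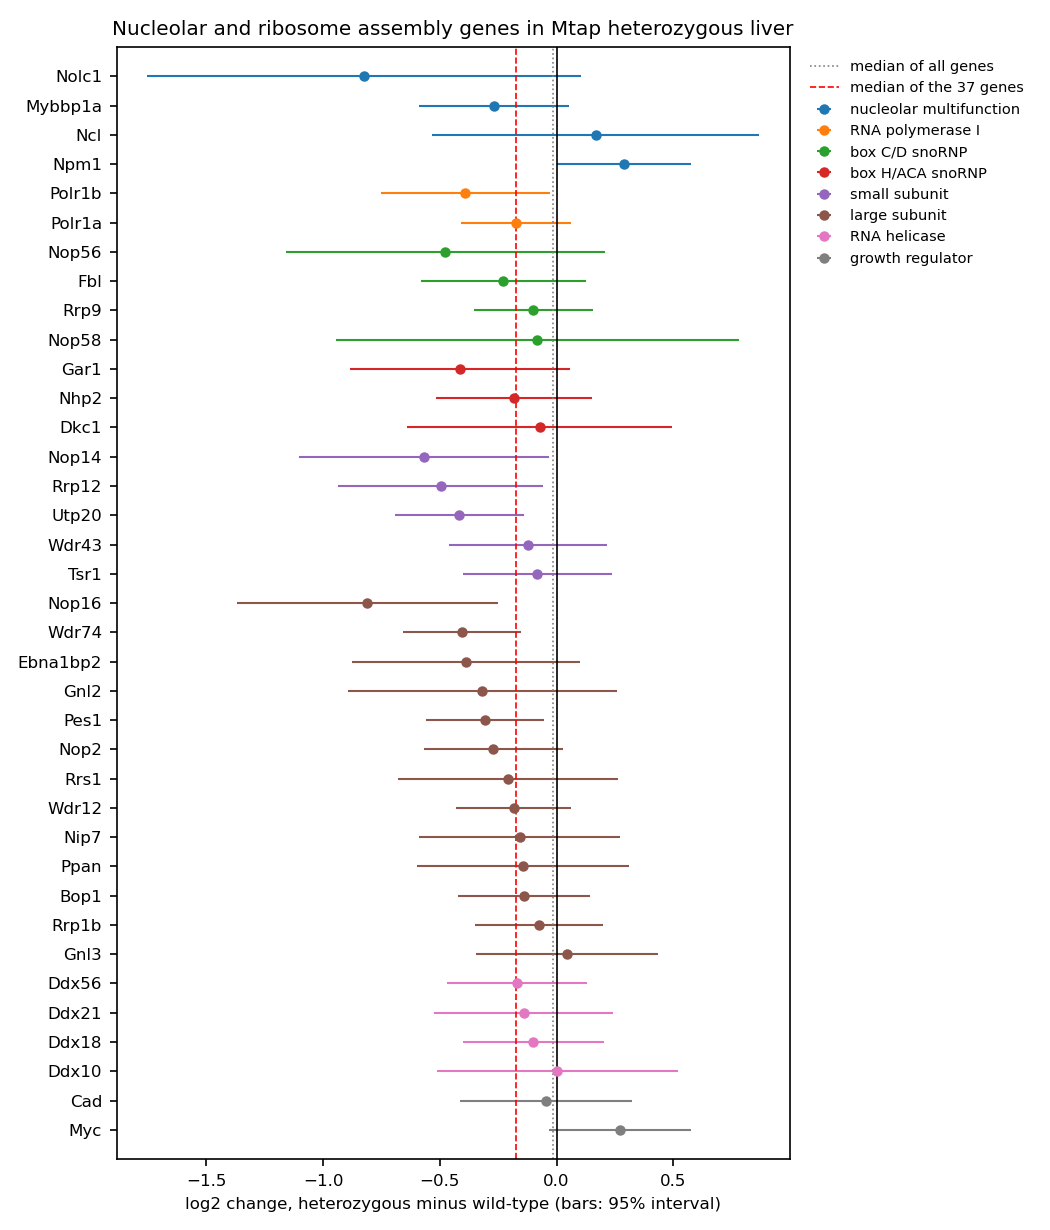
Log2 change (horizontal axis, heterozygous minus wild-type) of each of the 37 genes, grouped by role. Points are estimates and bars are 95% intervals from the limma fit over 8 livers; the dashed line is the median of the 37 genes (-0.17) and the dotted line the median of all genes (-0.02). Most points lie left of 0, and most bars cross it.

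These counts moved when single livers were left out. The count of genes lower at an unadjusted p under 0.05 was 3 without heterozygous replicate 1 (all genes 3.68%), 13 without heterozygous replicate 2 (all genes 6.30%) and 4 with heterozygous replicate 4 left out (all genes 3.28%). It was 3 without wild-type replicate 1 (all genes 3.08%), 3 without wild-type replicate 2 (all genes 4.67%) and 11 with wild-type replicate 4 left out (all genes 5.53%). With fewer livers, groups that do not overlap are more common. Lower genes with no overlap numbered 11 once heterozygous replicate 2 was left out (all genes 6.20%), and 5 once wild-type replicate 3 was (all genes 4.53%). The count of higher genes at that p, of which Npm1 was the 1, was 2 once wild-type replicate 2 was left out (all genes 4.36%). It was 1 once heterozygous replicate 4 was left out (all genes 3.24%), and 0 for each of the other 6 livers (all genes 3.18% to 5.90%).

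A clock score was computed per liver by subtracting the mean level of 5 clock genes that peak at night from that of 9 that peak in the evening. It was 1.78 ± 0.49 in heterozygous and 0.335 ± 0.364 in wild-type livers (SD, n = 4 each). The ranges of 1.04 to 2.09 in heterozygous and -0.10 to 0.78 in wild-type livers did not overlap, so genotype and clock score cannot be told apart here, and a fit with the score as a covariate also takes up differences between genotypes. In that fit 22 of the 37 genes (59.5%) were lower, where 52.0% of all genes were, and the median change was -0.09. At an unadjusted p under 0.05, 1 of the 37 was lower, where the share of all genes was 1.42%, and Mtap itself was at -0.62 and missed the threshold.

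The genes that transcribe ribosomal RNA come first in the pathway. Polr1b, the second largest subunit of RNA polymerase I, was at 3.92, 4.34, 4.10 and 3.61 in heterozygous livers against 4.64, 4.36, 4.11 and 4.41 in wild-type livers. These are dim signals, and heterozygous replicate 2 lay within the wild-type range. The change was -0.39 ± 0.16 (SE), with an unadjusted p of 0.0363 and an adjusted p of 0.506 by limma. Polr1a, which encodes the largest subunit, had 5.81, 6.07, 5.85 and 5.95 in heterozygous livers and 6.25, 6.12, 5.93 and 6.07 in wild-type livers, with heterozygous replicates 2 and 4 inside the wild-type range. The difference was smaller, at -0.17 ± 0.11 (SE, limma adjusted p = 0.669). The 4 other Polr1a probe sets lay between -0.17 and -0.03. Of 13 further genes of this transcription step 7 were lower (median -0.02), and Polr1e, another subunit, had no overlap between genotypes (-0.40, limma adjusted p = 0.354). The activator Ubtf was at -0.02 and the initiation factor Rrn3 at -0.02.

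Among nucleolar proteins of many functions both directions occurred. Npm1, the abundant chaperone nucleophosmin, was at 10.53, 10.45, 10.34 and 10.50 in heterozygous livers against 9.85, 10.48, 10.15 and 10.18 in wild-type livers. The 4 heterozygous values were close together, and only wild-type replicate 2 reached them. Its change was 0.29 ± 0.13 (SE), the highest of the 37, with an unadjusted p of 0.050 and an adjusted p of 0.547 by limma. The second Npm1 probe set gave 0.35, and both are of a kind that can match several transcripts. Npm1 is known to have near-identical pseudogenes, so its signal is uncertain. Probe sets that can match several transcripts were also the brightest for other genes. Mybbp1a, Fbl, Nhp2, Gar1, Tsr1, Rrs1 and Cad among these were lower, and Gnl3 and Myc were higher. Without probe sets of this kind, 30 of the 32 genes still measured were lower, where 53.7% of all genes were.

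Ncl, which encodes the RNA-binding protein nucleolin, had 8.79, 9.77, 8.98 and 9.23 in heterozygous and 8.61, 10.07, 8.74 and 8.67 in wild-type livers. Replicate 2 of each genotype stood well above its group, so the change of 0.17 ± 0.32 (SE) was smaller than the spread, and 3 of its 4 other probe sets were slightly negative (-0.14 to -0.04). Nolc1, which encodes the snoRNA particle chaperone Nopp140, varied most: it was at 5.05, 6.87, 5.84 and 6.10 in heterozygous and 7.17, 7.58, 6.74 and 5.68 in wild-type livers. Its change was the lowest of the 37 at -0.82 ± 0.42 (SE, limma adjusted p = 0.605), and its other probe sets gave -0.47 and -0.96. With the clock score as a covariate the Nolc1 estimate was 0.26. Mybbp1a, a nucleolar protein that binds Myb, was at -0.27, and -0.58 at its second probe set.

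All 7 genes of the snoRNA particles had negative changes, with medians of -0.16 for box C/D and -0.18 for box H/ACA, and none passed the test. Fbl, the box C/D methyltransferase fibrillarin, was at 8.38, 8.86, 8.42 and 8.44 in heterozygous livers against 8.91, 9.08, 8.57 and 8.46 in wild-type livers. Heterozygous replicate 2 reached into the wild-type range (-0.23 ± 0.16, SE, limma adjusted p = 0.727), and the second Fbl probe set gave -0.40. The box C/D core genes Nop56 and Nop58 were at -0.48 and -0.08, and Rrp9, of the U3 particle, at -0.10. Gar1, a core box H/ACA protein, had 6.91, 7.66, 6.71 and 7.03 in heterozygous and 7.59, 7.89, 7.37 and 7.11 in wild-type livers, with overlap through heterozygous replicate 2 (-0.41 ± 0.21, SE, limma adjusted p = 0.610). Dkc1, the pseudouridine synthase dyskerin, was at 7.26, 7.84, 7.26 and 7.22 in heterozygous and 7.19, 8.28, 7.46 and 6.94 in wild-type livers, and its change of -0.07 ± 0.26 (SE) was far inside the spread, with -0.18 at a probe set nearly as bright and 0.20 at a dimmer one. Nhp2, the remaining core protein, was at -0.18.

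Small subunit factors had the lowest median of the role groups with more than 2 genes (-0.42 over 5 genes, all 5 negative). Utp20, a component of the small subunit processome, was at 6.75, 6.70, 6.71 and 6.34 in heterozygous livers and 7.11, 7.25, 6.87 and 6.95 in wild-type livers. Every heterozygous value lay below every wild-type value, and the level was 74.9% of wild-type (-0.42 ± 0.13, SE, unadjusted p = 0.0071 and adjusted p = 0.337 by limma). The processome factor Nop14 had 5.85, 6.60, 6.05 and 5.99 in heterozygous livers against 6.76, 7.38, 6.46 and 6.17 in wild-type livers. Its groups overlapped through heterozygous replicate 2, and the change was -0.57 ± 0.24 (SE, unadjusted p = 0.0398 and adjusted p = 0.518 by limma). Rrp12, which acts in export of pre-ribosomal particles, had low signals of 3.78, 4.39, 4.19 and 3.90 in heterozygous and 5.09, 4.64, 4.25 and 4.26 in wild-type livers. Wild-type replicate 1 was the highest, heterozygous replicate 2 lay above wild-type replicates 3 and 4, and the change was -0.50 ± 0.20 (SE, unadjusted p = 0.0296 and adjusted p = 0.470 by limma). Wdr43 and Tsr1, of early and late small subunit maturation, were at -0.12 and -0.08, and a second Wdr43 probe set gave 0.30.

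Large subunit factors formed the biggest group, and 12 of 13 were lower (median -0.21). Wdr74, a large subunit assembly factor, had the smallest p of the 37, with 7.60, 7.91, 7.62 and 7.55 in heterozygous livers against 8.26, 8.03, 8.02 and 7.99 in wild-type livers. The groups did not overlap, and the level was 75.5% of wild-type (-0.41 ± 0.11, SE, unadjusted p = 0.00465 and adjusted p = 0.310 by limma). Nop16, also of the large subunit, was at 6.38, 7.59, 7.28 and 6.69 in heterozygous and 8.02, 7.90, 7.95 and 7.31 in wild-type livers. Only wild-type replicate 4 came within the heterozygous range, and the level was 57.0% of wild-type (-0.81 ± 0.25, SE, unadjusted p = 0.00864 and adjusted p = 0.349 by limma). A dim second Nop16 probe set gave -0.23.

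Pes1, Bop1 and Wdr12 form a complex needed for large subunit processing, and all 3 had negative changes. Pes1 was at 7.21, 7.31, 7.37 and 7.32 in heterozygous livers against 7.70, 7.84, 7.49 and 7.40 in wild-type livers. The groups did not overlap, although heterozygous replicate 3 and wild-type replicate 4 lay close together, and the level was 80.9% of wild-type (-0.31 ± 0.11, SE, unadjusted p = 0.0226 and adjusted p = 0.450 by limma). Bop1 and Wdr12 were at -0.14 and -0.18, with limma adjusted p of 0.810 and 0.670, and a dim second Bop1 probe set gave 0.05. Nop2, an rRNA cytosine methyltransferase, was at 6.03, 6.61, 6.27 and 6.12 in heterozygous and 6.57, 6.65, 6.56 and 6.34 in wild-type livers, with heterozygous replicate 2 inside the wild-type range (-0.27 ± 0.13, SE, limma adjusted p = 0.595). The remaining large subunit genes were Ebna1bp2 (-0.39), the GTPase gene Gnl2 (-0.32), Rrs1 (-0.21), Nip7 (-0.16), Ppan (-0.15), Rrp1b (-0.08) and Gnl3, which encodes the GTPase nucleostemin (0.04). None of these 7 had an unadjusted p under 0.05. Dimmer probe sets gave 0.08 and -0.08 for Ebna1bp2. For Gnl2 a second probe set gave -0.36 and a much dimmer one, with a mean signal of 2.71, gave 0.11. Over all probe sets of the 37 genes, 63 of 75 were lower. Of these, 32 were the brightest ones already counted, and 31 came from the 38 other probe sets of the same genes. The share of lower probe sets over the whole array was not computed.

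None of the 4 DEAD-box helicase genes, whose products remodel RNA, passed the test, with Ddx56 at -0.17, Ddx21 at -0.14, Ddx18 at -0.10 and Ddx10 at 0.00, and limma adjusted p from 0.769 to 0.998. A second Ddx10 probe set gave -0.23. The 95% interval of the Ddx10 difference ran from -0.51 to 0.52, so differences of that size in either direction are not excluded.

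The growth regulator Myc and its known target Cad had changes of 0.27 and -0.05, and neither passed the test. Myc was at 5.08, 5.005, 5.21 and 4.58 in heterozygous livers and 4.78, 4.53, 4.73 and 4.75 in wild-type livers. Heterozygous replicates 1 to 3 were above all wild-type livers and replicate 4 was below 3 of them, a change of 0.27 ± 0.14 (SE, unadjusted p = 0.0758 and adjusted p = 0.604 by limma). With the clock score as a covariate the Myc estimate was -0.19. Cad, whose product starts pyrimidine synthesis, had 5.13, 5.41, 5.63 and 4.90 in heterozygous and 5.62, 5.15, 5.34 and 5.14 in wild-type livers, fully overlapping (-0.05 ± 0.17, SE, limma adjusted p = 0.964).

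**Figure D2:**
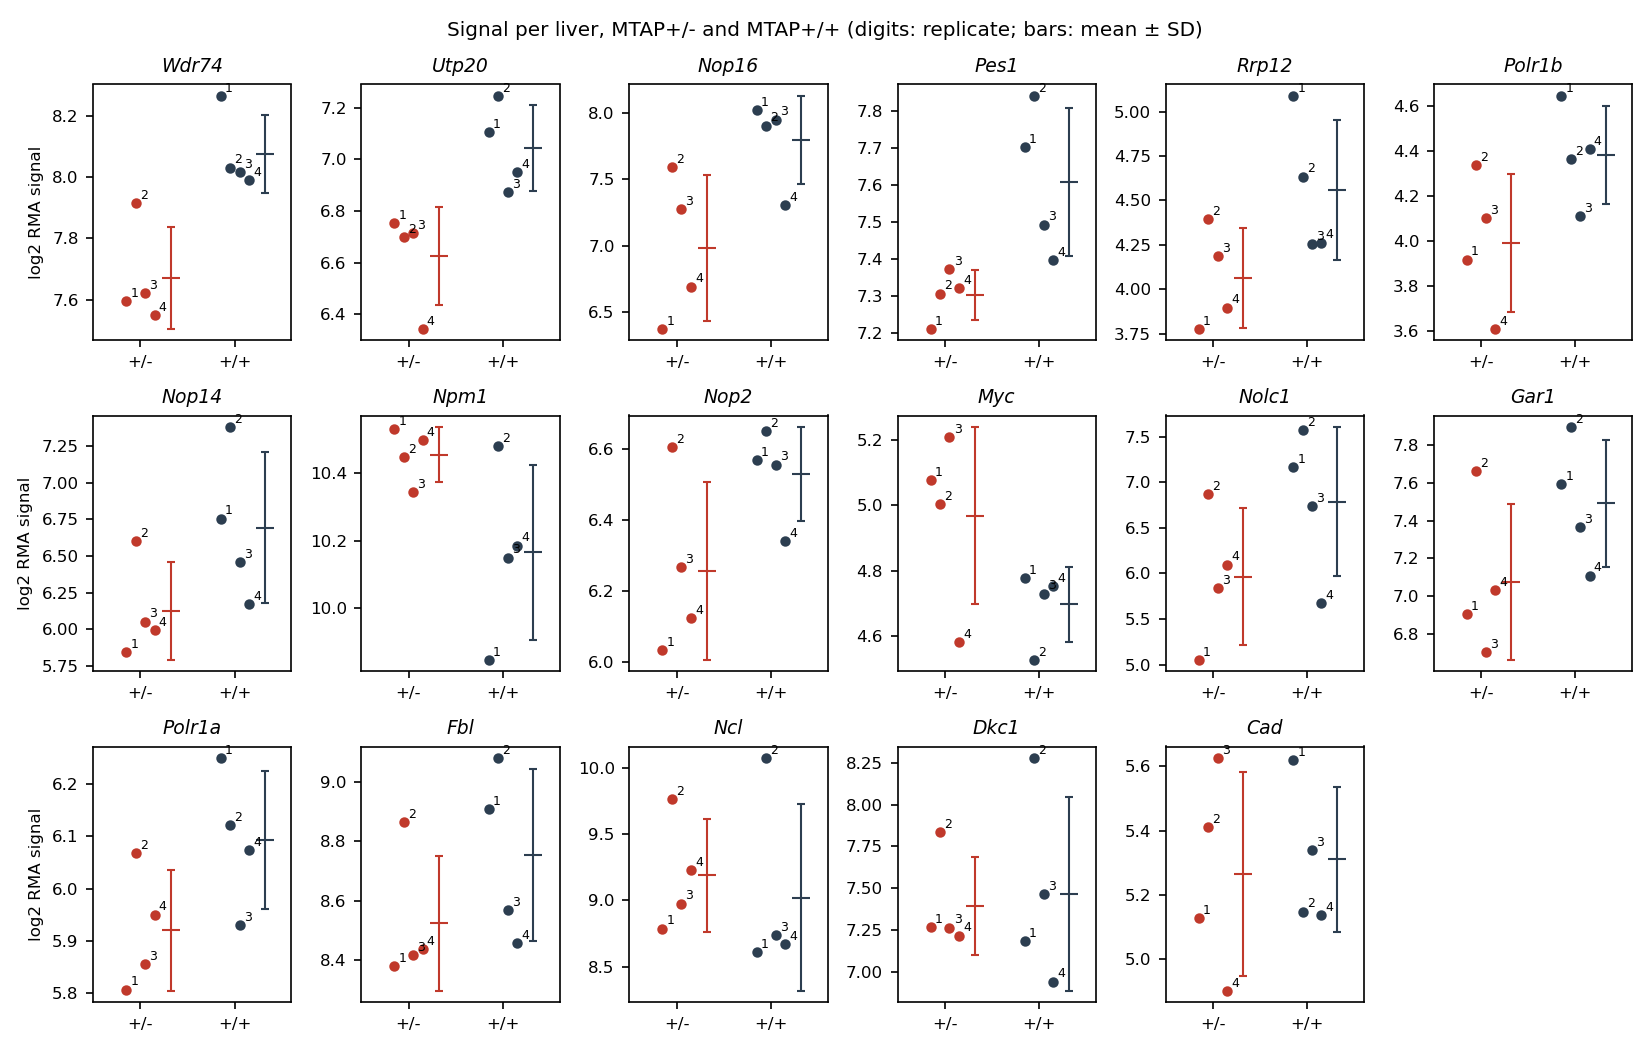
Log2 RMA signal (vertical axis, own scale per gene) in each MTAP+/- and MTAP+/+ liver for 17 genes, ordered by p; digits give the replicate and bars the mean ± SD of 4 livers. Wdr74, Utp20 and Pes1 have no overlap between genotypes, while replicate 2 of both genotypes is high for Ncl and Dkc1.

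Beyond genotype, the livers differed from each other in a pattern shared by many of the genes. Among heterozygous livers replicate 2 held the highest value for 24 of the 37 genes (64.9%), where it did so for 27.2% of all genes. Among wild-type livers replicate 2 was highest for 20 genes (54.1%, all genes 21.5%) and replicate 1 for 16 (43.2%, all genes 29.3%). At the low end stood heterozygous replicate 1, lowest of its genotype for 21 genes (56.8%, all genes 22.6%), and wild-type replicate 4, lowest for 18 (48.6%, all genes 20.5%). The mean over the 37 genes was 6.66, 7.09, 6.81 and 6.79 in heterozygous livers and 7.11, 7.34, 6.97 and 6.80 in wild-type livers, so the genotypes overlapped: heterozygous replicate 2 was above wild-type replicates 3 and 4, and heterozygous replicate 3 just above wild-type replicate 4. These means went with the first principal component, scored over all probe sets. Heterozygous replicate 2 and wild-type replicates 1 and 2, at scores of 25.59 to 35.57, had means of 7.09, 7.11 and 7.34. Heterozygous replicates 1, 3 and 4 and wild-type replicate 4, at -24.91 to -23.43, had means of 6.66 to 6.81. The part of this component in the lower heterozygous levels was not tested. The control signals that compare the 3' and 5' ends of Actb and Gapdh, a sign of RNA integrity, differed by 0.713 in heterozygous replicate 2 and by 0.880 to 1.12 in the other livers. With this difference as a covariate 30 of the 37 genes were lower, and its part in the pattern across livers was not tested.

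**Figure D3:**
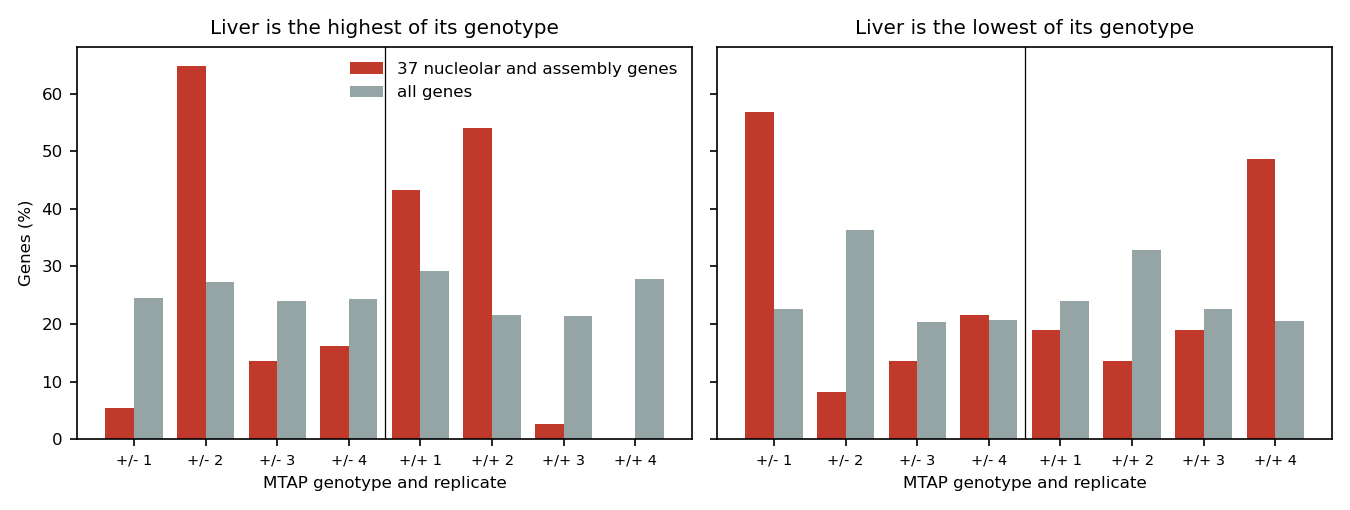
Share of genes (vertical axis, %) for which a given liver had the highest (left) or lowest (right) value of its genotype, for the 37 genes and for all genes. Heterozygous replicate 2 and wild-type replicates 1 and 2 exceed the shares of all genes at the high end, and heterozygous replicate 1 and wild-type replicate 4 at the low end.

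Replicate 2 was the highest liver of both genotypes for 14 genes, where this held for 7.73% of all genes. These were Ncl, Nolc1, Fbl, Nop56, Nop58, Dkc1, Gar1, Nop14, Nop2, Rrs1, Gnl2, Ebna1bp2, Ddx10 and Ddx21. Nop58 was at 7.16, 8.43, 6.97 and 7.64 in heterozygous and 7.06, 8.75, 7.67 and 7.07 in wild-type livers, where replicate 2 was the highest of each. Nop56 was at 6.46, 7.28, 6.53 and 6.72 in heterozygous and 7.29, 8.06, 7.22 and 6.32 in wild-type livers. Nip7, a pre-rRNA processing factor, went the other way, with heterozygous replicate 2 (6.52) the lowest of the 8 livers. Leaving out replicate 2 of both genotypes left 29 of 37 genes lower, with 12 lower genes without overlap between the remaining livers, where 9.88% of all genes had none.

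**Figure D4:**
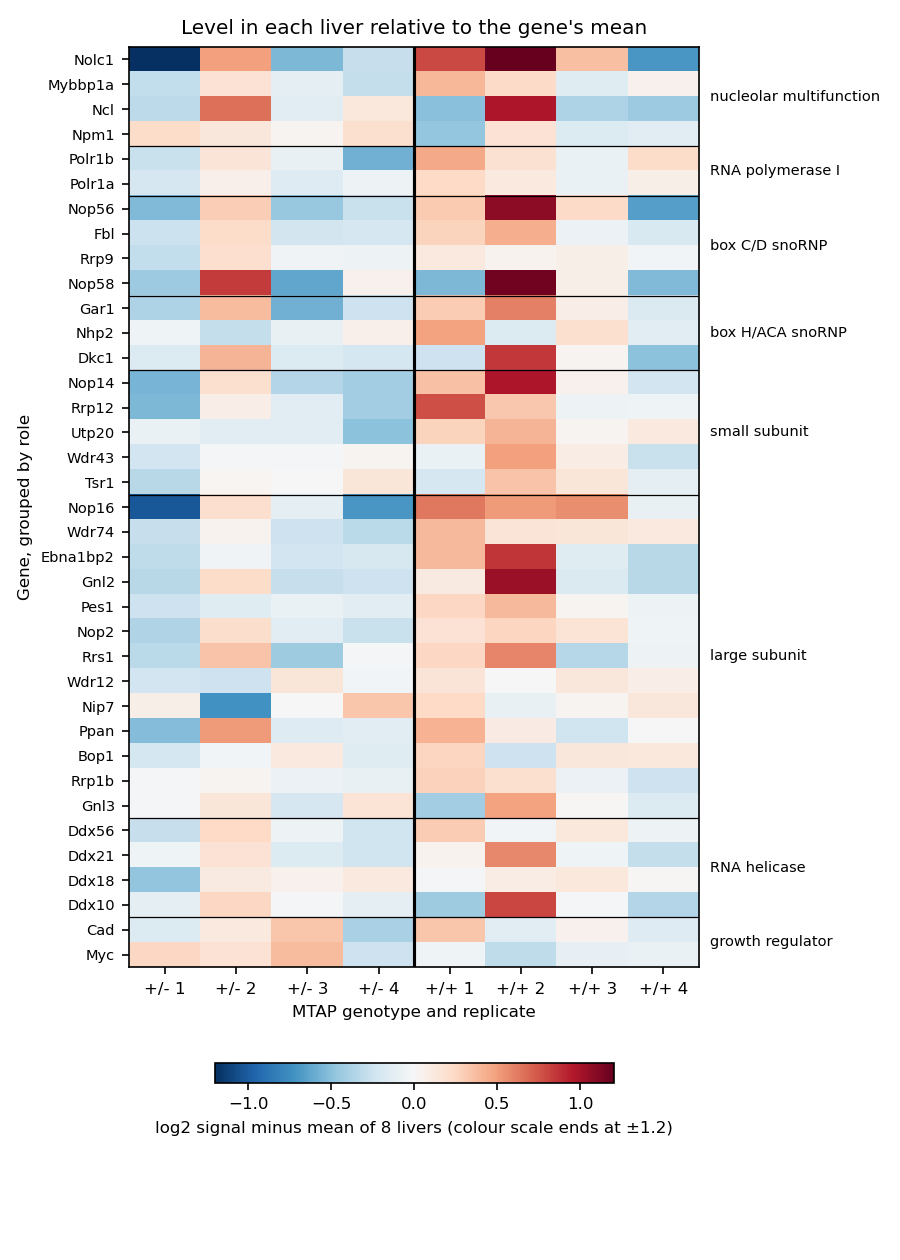
Log2 signal of each gene minus its mean over 8 livers (colour), with MTAP+/- livers left of the line and MTAP+/+ livers right of it, and genes grouped by role. Wild-type replicate 2 is the highest of the 8 livers for 19 genes (all genes 12.8%), and heterozygous replicate 1 the lowest for 14 (all genes 12.1%).

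Several of the genes are themselves known snoRNA hosts, carrying snoRNA genes in their introns. By RefSeq gene positions, 8 of the 37 genes (21.6%) had at least 1 snoRNA gene inside their span, against 1.91% of 18145 measured genes found in RefSeq: Ncl, Nop56, Nop58, Dkc1, Wdr43, Tsr1, Gnl3 and Ppan. Nop56 had the most, with 5, among them Snord57 and Snord110. Wild-type replicate 2 had the highest of all 8 values for 7 of these 8 genes, the exception being Ppan. It also did so for 19 of the 37 genes, and for 12.8% of all genes. Their median change was -0.08, against -0.21 for the other 29 genes. The arrays measure the host messenger RNA, and the snoRNAs were not analysed here.

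Promoters were searched for CACGTG, the E-box read by MYC with its partner MAX and also by the clock activators. The search used RefSeq windows of assembly GRCm38.p6, from 250 bases before to 50 after the start, which were found for 30 of the 37 genes. The motif reads the same on both strands. It was present for 6 of 30 genes, against 11.8% of measured genes at or above the level of the dimmest of the 37, and 10.2% of all measured genes with a window. The 6 were Pes1, Nop2, Wdr43, Tsr1, Utp20 and Mybbp1a, and all 6 had negative changes, as did 21 of the 24 without the motif. Of these 6, the windows in which the motif lies before base 31 after the start are printed from 100 bases before to 30 after it, to show where the E-box stands, in capitals:

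Pes1, chr11:3963875-3964004, plus strand: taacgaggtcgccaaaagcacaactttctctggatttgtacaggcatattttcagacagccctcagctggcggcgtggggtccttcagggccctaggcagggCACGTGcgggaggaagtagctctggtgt
Nop2, chr6:125131783-125131912, plus strand: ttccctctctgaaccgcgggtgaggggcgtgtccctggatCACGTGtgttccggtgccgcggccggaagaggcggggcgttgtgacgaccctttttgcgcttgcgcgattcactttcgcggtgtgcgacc
Wdr43, chr17:71616115-71616244, plus strand: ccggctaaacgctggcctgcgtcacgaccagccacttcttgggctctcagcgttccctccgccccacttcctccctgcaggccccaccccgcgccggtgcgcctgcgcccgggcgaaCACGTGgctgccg
Tsr1, chr11:74897980-74898109, plus strand: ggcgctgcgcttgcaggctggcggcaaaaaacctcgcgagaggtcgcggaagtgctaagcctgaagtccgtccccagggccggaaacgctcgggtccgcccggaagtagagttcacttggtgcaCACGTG

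In Pes1 the motif begins at base 3 after the start, in Wdr43 at base 18, in Tsr1 at base 25 and in Nop2 60 bases before it. It begins at base 38 in Utp20 and at base 41 in Mybbp1a. A match of letters does not show that a factor binds. Of the factors that read this motif, Myc was at 0.27 and Arntl, which encodes the clock activator BMAL1, at -1.51 (limma adjusted p = 0.110, no overlap between genotypes).

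Other genes of ribosome assembly, listed by their known roles with earlier results of these data known, had mostly negative changes too. Of 46 further small subunit factors 33 were lower (median -0.10), with 5 lower and 2 higher at an unadjusted p under 0.05 and 0 past the adjusted threshold. Bysl (-0.50), Utp23 (-0.43) and Bud23, an rRNA methyltransferase (-0.30), had no overlap between genotypes, whereas Rcl1 was higher without overlap (0.48), with limma adjusted p from 0.306 to 0.441 for these 4. Of 42 further large subunit factors 33 were lower (median -0.14) with 3 lower at an unadjusted p under 0.05, namely the export GTPase gene Lsg1 (-0.54), Noc2l (-0.46) and Ddx27 (-0.46). Genes of the RNA exosome, which trims rRNA precursors, were lower in 12 of 14 cases (median -0.11), led by Exosc3 (-0.41). At an unadjusted p under 0.05 by limma, 3 of them were lower and 0 higher (all genes 4.74% and 4.4%). RNA polymerase III genes, which make 5S rRNA and transfer RNAs, were nearer to all genes, with 14 of 21 lower (median -0.05) and 0 at an unadjusted p under 0.05.

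MYC partners and other MYC targets did not share one direction. Of 13 partners and relatives 8 were lower (median -0.09), among them Mycl (-0.37) and the antagonist gene Mxd1 (-0.25), while Mga was at 0.35. Of 26 other known MYC targets 12 were lower and 14 higher (median 0.01), and Fkbp4 (-0.54) and Shmt2 (-0.48) had no overlap between genotypes. At an unadjusted p under 0.05 by limma, 2 partners were lower and 1 higher, and 4 of these targets were lower and 1 higher. Of all genes 4.74% were lower and 4.4% higher at that p. Proliferation markers, which often move with ribosome synthesis, had 6 of 11 lower and 0 at an unadjusted p under 0.05, and their mean level ranged from 4.53 to 5.50 in heterozygous and from 4.47 to 5.85 in wild-type livers.

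**Figure D5:**
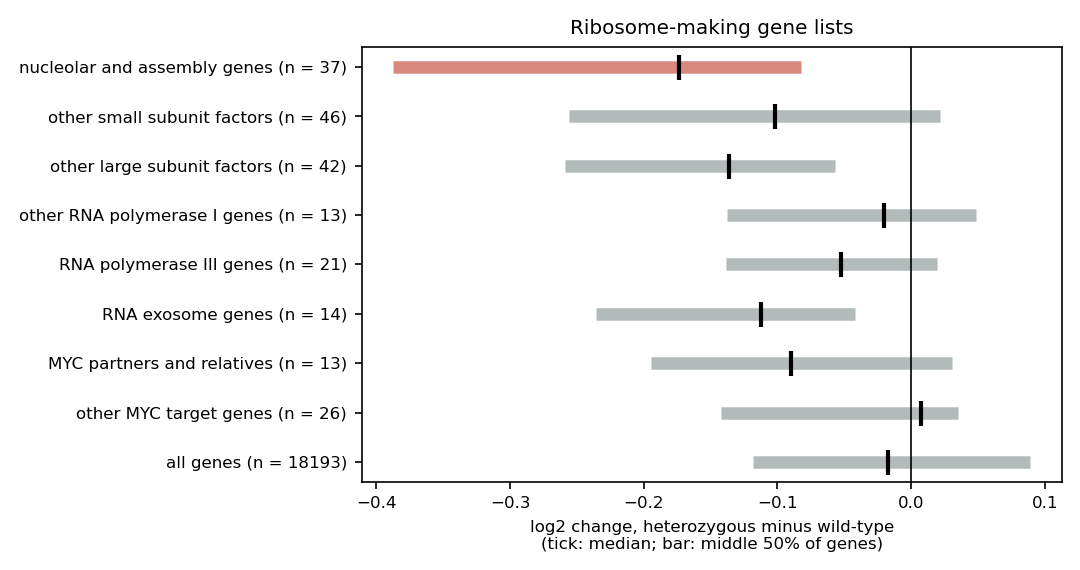
Median log2 change (black tick) and middle 50% of genes (bar) for the 37 genes, related lists and all genes; the horizontal axis is heterozygous minus wild-type. The 37 genes (median -0.17) lie lowest, followed by large subunit factors (-0.14) and the exosome (-0.11).

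No marker of other liver cells passed the test, and most had higher levels in heterozygous livers. Macrophage and Kupffer cell markers were higher in 11 of 13 cases, with a mean level of 8.17 to 8.80 in heterozygous and 7.99 to 8.24 in wild-type livers. Leukocyte markers were higher in 9 of 10 cases, at 4.71 to 5.25 in heterozygous and 4.57 to 4.69 in wild-type livers, although 7 of the 10 lay below the median gene level. Stellate and endothelial markers were higher in 8 of 12 cases, at 6.96 to 7.22 in heterozygous and 6.90 to 6.97 in wild-type livers. The ranges of the genotypes overlapped for the first and last of these lists. By limma 5, 2 and 1 genes, in the order given, were higher at an unadjusted p under 0.05, where 4.4% of all genes were. In the same order 2, 1 and 1 genes were higher without overlap between genotypes (all genes 1.95%). Over all genes 8247 of 18193 were higher in heterozygous livers. Biliary markers went the other way, lower in 4 of 5 cases (median -0.13), with 0 at an unadjusted p under 0.05. The part of these cell types in the levels of the 37 genes was not tested.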

How the data were processed

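Values were used as the authors deposited them, as log2 signals per probe set made with RMA, per the submitters' processing notes; no RMA version is given in the sources used here. Values ran from 1.64 to 14.7, from which the log scale was inferred. RMA compresses differences of dim transcripts. After leaving out 64 control probe sets, 34945 of 45037 had 1 gene symbol, 932 several and 9160 none, from a platform annotation, giving 18193 genes by the brightest probe set. Genotypes were compared with limma 3.58.1 in R 4.3.3 (lmFit and eBayes, two-sided, Benjamini-Hochberg over all genes). On simulated data with independent noise per gene, 0.9% of log2 changes of 0.25 were called. The share was 27.2% for changes of 0.5 and 94.3% for changes of 1.0. A lack of calls therefore says little about small changes. The number of arrays limits the precision.

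The 37 genes, the other lists (247 of 259 genes measured) and the tests were chosen with earlier results of these data known. Values in all livers are given for the 12 of the 37 genes with the smallest p and for Ncl, Npm1, Fbl, Myc, Cad, Polr1a, Polr1b and Dkc1; of other lists at most 4 genes of smallest p were named. Outside this rule Ubtf, Rrn3, Nop56, Nop58 and Nip7 were given after their values were seen. Alternatives covered probe set choice, filters, normalisation, weights, covariates and left-out livers; leaving out replicate 2 of both genotypes and the 3' minus 5' covariate were added after seeing the data.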

Additional observations from a re-analysis of the deposited data

Results flagged for a closer look

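For 8 of 76 groups of 4 livers, over Mtap and the 37 genes, the highest or lowest liver stood apart from the other 3 by more of the group's range than Dixon's 95% critical value, a mark that chance passes in about 1 group in 20. Replicate 2 accounted for 4 of them, all on the high side. Heterozygous replicate 2 stood apart for Fbl at 8.86 (others 8.38 to 8.44), for Dkc1 at 7.84 (others 7.22 to 7.26) and for Gnl2 at 7.80 (others 7.24 to 7.33). Wild-type replicate 2 did so for Ncl at 10.07 (others 8.61 to 8.74). The remaining livers that stood apart were Utp20 in heterozygous replicate 4 at 6.34 (others 6.70 to 6.75), Ddx18 in heterozygous replicate 1 at 6.40 (others 6.92 to 6.998), Nop16 in wild-type replicate 4 at 7.31 (others 7.90 to 8.02) and Wdr74 in wild-type replicate 1 at 8.26 (others 7.99 to 8.03).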

How the results depend on the processing

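Over 19 alternatives 0 of the 37 genes were called in any, between 22 and 34 genes were lower, and the median change lay between -0.28 and -0.09. The count of genes lower at an unadjusted p under 0.05 (7, all genes 4.74%) was 11 with the replicate block (5.22%), 11 without replicate 2 of both genotypes (6.37%), 1 with the clock score covariate (1.42%), and 3 to 13 when 1 liver was left out (3.08% to 6.30%). The count of higher ones (1, all genes 4.4%) was 0 with the 3' minus 5' covariate, median centring, the clock score or dim genes left out. It was also 0 with trend and robust eBayes, the replicate block, or without probe sets that can match several transcripts (1.80% to 6.03% over all these settings). It was 2 without replicate 2 of both genotypes (6.06%), and 0 to 2 when 1 liver was left out (3.18% to 5.90%). Lower genes without overlap (3) were 12 without replicate 2 of both genotypes (all genes 9.88%) and 3 to 11 when 1 liver was left out (3.75% to 6.20%), and higher ones (0) were 2 (7.93%), and 0 to 2 (2.80% to 5.26%). Genes called over all genes (9) were 0 with the clock score, 2 with dim genes left out, 4 with each gene's probe sets averaged, 4 without replicate 2 of both genotypes and 3 to 20 when 1 liver was left out. Mtap stayed lower but missed the threshold with dim genes left out (-0.80), the clock score (-0.62), the replicate block (-0.80) and without replicate 2 of both genotypes (-0.85), and in 6 of 8 fits with 1 liver left out (-0.84 to -0.74 over the 8). It was -1.23 with probe sets averaged and -1.50 without those that can match several transcripts. Of the 17 genes of the naming rule, 12 kept their sign throughout. The sign turned for Myc (-0.19) and Nolc1 (0.26) with the clock score, for Ncl with its probe sets averaged (-0.011) and among -0.024 to 0.52 when 1 liver was left out, for Dkc1 with the 3' minus 5' covariate (0.0016), without replicate 2 of both genotypes (0.052) and among -0.25 to 0.20, and for Cad among -0.165 to 0.076. The clock score does not overlap between genotypes, so that fit cannot tell them apart; the cause of the other shifts was not tested. Replicate numbers are shared by the genotypes, and the labels do not say whether they pair the livers. Deviations of same-numbered livers correlated at -0.10, 0.15, 0.03 and 0.14 over 18193 genes, and 2 of 8 livers correlated best with their own number. Replicate 2 was the highest liver of both genotypes for 14 of the 37 genes (all genes 7.73%). The replicate block changed the count of all called genes to 6. Whether the livers were paired cannot be settled from these values.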
